A study of Bos taurus with 2 samples.

Results

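Dynein motors, tektins, radial spokes and intraflagellar transport (IFT) proteins build and serve the microtubule machinery of cilia, sperm tails and dividing or transporting cells. Their genes were compared between RNA sequencing libraries of seminiferous tubules, the sperm-forming tubes of the testis, (Bos taurus) taken at 3 months of age from the first calf and at 9 months from the other, as flash-frozen pieces of removed testes. Each age was represented by 1 library, and no treatment, strain or genotype is given in the labels. Members were chosen by symbol alone, as every row whose symbol starts with DNAH, DNAI, TEKT or IFT and a digit, or with DNAL, DYNC, DYNL or RSPH. This gave 57 of the 24616 listed genes under 54 symbols, made up of 17 axonemal dyneins, 14 cytoplasmic dyneins, 5 tektins, 6 radial spoke genes and 15 IFT genes. All 57 reached the minimum of 10 counts over both libraries that defined a measured gene, as did 18025 genes in all. With 1 library per age there is no replicate check and no test, so every difference below is between these libraries and not between the ages in general.

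An axoneme, the core of a motile cilium or sperm tail, is a ring of microtubule doublets around a central pair. Axonemal dyneins sit on the doublets as outer and inner arms and slide them against each other, radial spokes pass signals from the central pair to the arms, and tektins are filaments inside the doublet wall. Cytoplasmic dynein-1 instead carries cargo towards the minus ends of microtubules in most cells. IFT trains move building material along a growing cilium or flagellum, outwards by kinesin-2 with complex B and back by dynein-2 with complex A.

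Counts totalled 37600534 at 3 months and 29782234 at 9 months, of which the members took 0.157% and 0.545%. Expression is given in CPM, a count as a share of the library size scaled with TMM, the trimmed mean of M values. Levels of different genes are compared only in the deposited RPKM, which is relative to gene model length and to the unscaled total. Folds are ratios of TMM-scaled counts with a 95% exact interval in brackets, which covers counting error only. Calls of higher or lower needed a difference of 2-fold or more and an interval on 1 side of a ratio of 1, and every other gene is described as within 2-fold. Markers of spermatocytes and spermatids were higher in the 9-month library. The 14 spermatocyte markers, all 14 higher, summed to 44.2 CPM at 3 months and to 1785 CPM at 9 months, with 0 of them at 0 counts in either library. The 17 spermatid markers summed to 52.4 and 4552 CPM, all 17 higher, and SPACA3 and ODF1 were at 0 counts in the 3-month library. ODF2 alone gave 47.2 of the 52.4 CPM at 3 months, and the other 16 summed to 5.26 and 3419 CPM. Without SYCP1, the most abundant spermatocyte marker at 3 months, the other 13 summed to 26.2 and 1673 CPM. Of 11 measured Sertoli cell markers 6 were lower and 2 higher, with sums of 8845 and 2127 CPM. Endothelial markers were lower in 7 of 8 and higher in 1 (206 and 129 CPM), and leukocyte and macrophage markers lower in 6 of 10 and higher in 1 (575 and 247 CPM). With plain library totals 3 of each were lower. Smooth muscle and peritubular myoid markers were lower in 3 of 8 and higher in 2 (791 and 777 CPM). CALD1 alone gave 273 and 37.3 CPM of these sums, and the other 7 summed to 517 and 740 CPM. With plain library totals 1 of these 8 was lower and 3 were higher. All 6 measured Leydig cell markers were lower, with sums of 17768 and 2739 CPM, so RNA of cells from between the tubules was present in both libraries. The part of these shifts in the values below was not tested. In such bulk samples, fewer cells of a type and less RNA per cell cannot be told apart.

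Among all members 38 were higher in the 9-month library, 2 lower and 17 within 2-fold. Among all measured genes 27.7% were at least 2-fold higher and 23.2% at least 2-fold lower. At least 4-fold higher were 26 members, against 17.2% of all measured genes, and at least 16-fold higher 16 members, against 7.62%. At least 4-fold lower were 0 members, against 8.78% of all measured genes, and 0.721% were at least 16-fold lower. The axonemal classes lay far above the cytoplasmic ones. Axonemal dyneins had a median log2 ratio (9-month over 3-month, with a prior count of 2) of 3.85, tektins of 6.11 and radial spoke genes of 5.80. IFT genes had a median of 1.17 and cytoplasmic dyneins of 0.49, while that of all measured genes was 0.0048. In the 3-month library 20 members stood under 1 RPKM, and in the 9-month library 3, namely DNAH5, DYNC1I1 and RSPH4A.

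**Figure D1:**
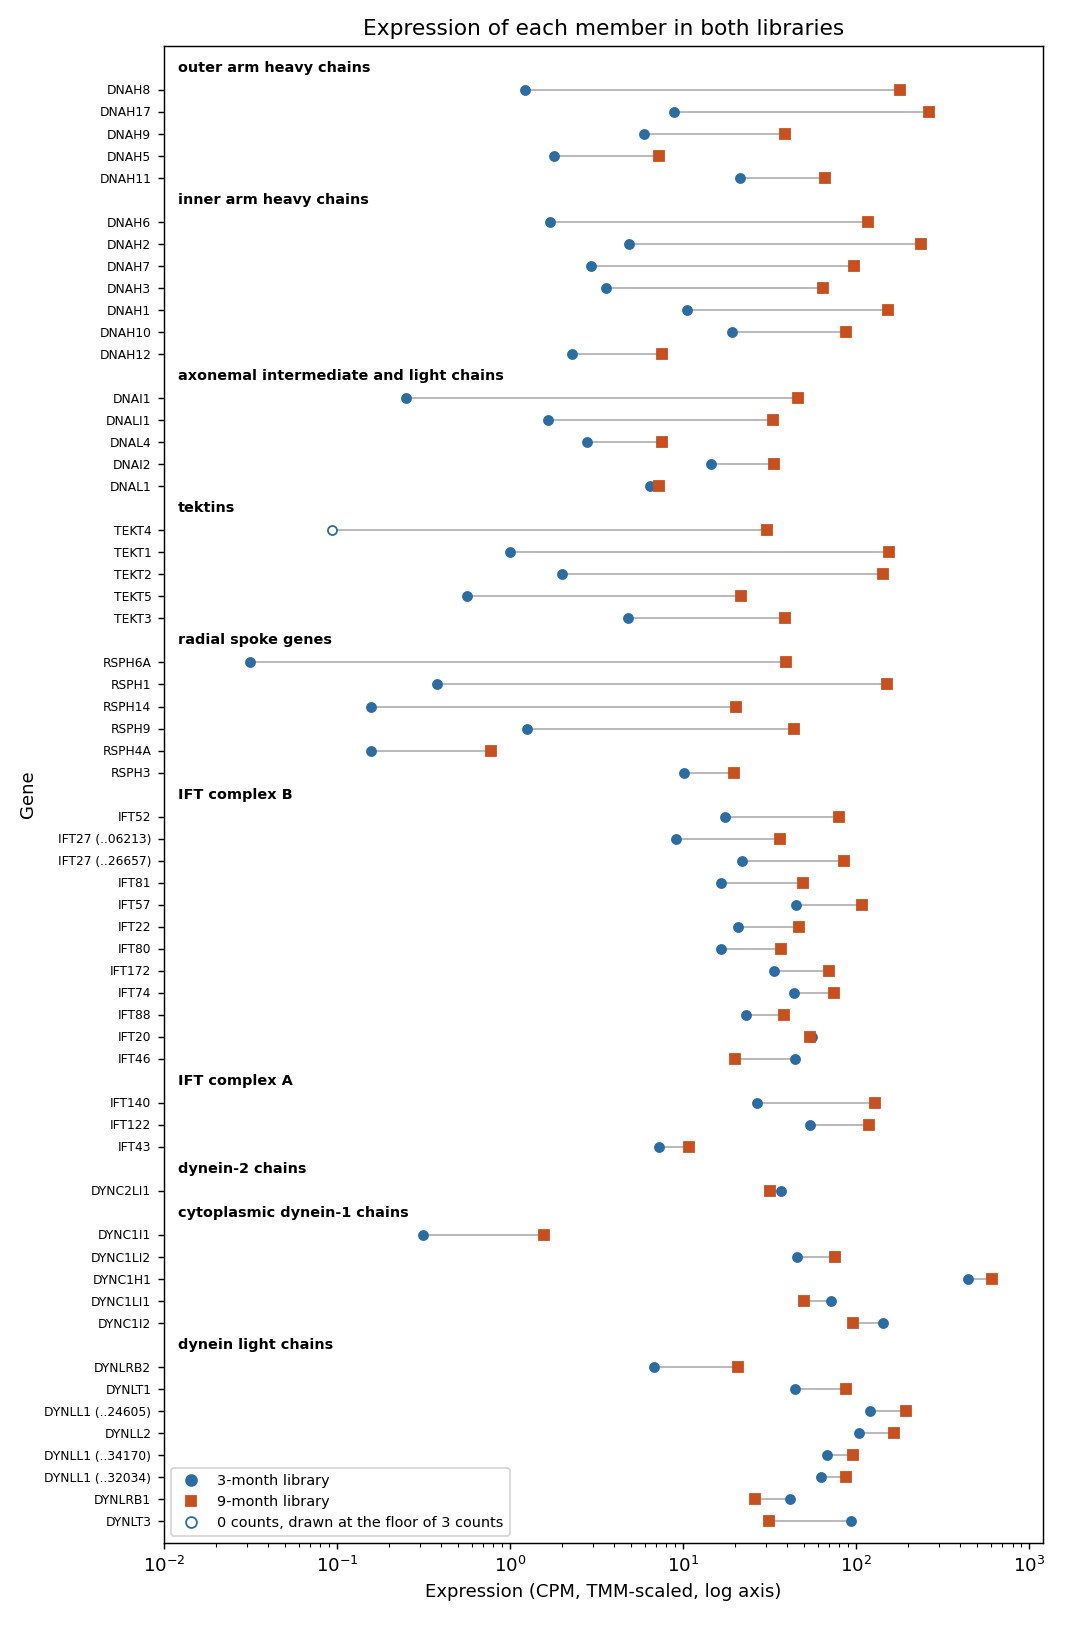
Expression of the 57 members in CPM (TMM-scaled, log axis) in the 3-month library (circles) and the 9-month library (squares), grouped by class. TEKT4, at 0 counts in the 3-month library, is drawn as an open circle at the floor of 3 counts. Most axonemal dyneins, tektins and radial spoke genes have wide gaps to the right, and most cytoplasmic dynein-1 chains and light chains have short gaps in either direction. Exceptions include DNAL1 and RSPH3, with short gaps, and DYNC1I1, with a wide one.

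Outer arm heavy chains, the large motor subunits of the arms that drive beat frequency, were all higher in the 9-month library. Those known from sperm tails differed most. DNAH8 (ENSBTAG00000014063), the sperm gamma heavy chain, had 39 counts (1.22 CPM) in the 3-month and 6260 (179 CPM) in the 9-month library and was 146-fold higher [107 to 206]. DNAH17 (ENSBTAG00000000920), the sperm beta heavy chain, had 283 counts (8.86 CPM) and 9179 (262 CPM), a 29.6-fold difference [26.3 to 33.4]. The heavy chains known from airway and other motile cilia differed less. DNAH9, a beta heavy chain, stood at 189 and 1362 counts (5.92 and 38.9 CPM) and was 6.57-fold higher [5.64 to 7.69]. DNAH5, the gamma heavy chain of cilia, went from 57 to 253 counts (1.78 and 7.22 CPM) and was 4.05-fold higher [3.03 to 5.49]. DNAH11, another beta heavy chain, went from 682 to 2315 counts (21.3 and 66.1 CPM) and was 3.09-fold higher [2.84 to 3.38], the smallest difference of the 5.

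The order of the outer arm heavy chains therefore differed between the libraries. Per length, DNAH11 led the 3-month library at 1.25 RPKM, followed by DNAH17 at 0.563 and DNAH9 at 0.362, with DNAH5 at 0.105 and DNAH8 at 0.0711. In the 9-month library DNAH17 led at 23.0 RPKM, followed by DNAH8 at 14.4, DNAH11 at 5.35, DNAH9 at 3.29 and DNAH5 at 0.589. In the 3-month library the counting intervals of DNAH5 (0.0796 to 0.136) and DNAH8 (0.0505 to 0.0972) overlapped, and no other neighbours in either order did. DNAH8 and DNAH17 together made up 27.0% of the summed outer arm heavy chain RPKM at 3 months and 80.2% at 9 months. The ratio of DNAH8 to DNAH5 counts was 0.684 and 24.7, a 36.2-fold difference [23.1 to 56.8] that does not depend on the scaling of the libraries. The same ratio of DNAH17 to DNAH11 was 0.415 and 3.97, a 9.56-fold difference [8.24 to 11.1], and that of DNAH17 to DNAH9 was 1.497 and 6.74, a 4.50-fold difference [3.69 to 5.48].

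Inner arm heavy chains, which shape the bend of the beat, were higher in all 7 rows. DNAH6 (ENSBTAG00000008449) had 54 counts (1.69 CPM) in the 3-month and 4119 (118 CPM) in the 9-month library and was 69.5-fold higher [53.2 to 92.7], at 0.266 and 25.6 RPKM. DNAH2 (ENSBTAG00000008605), a heavy chain of the inner arm with paired motors, went from 155 to 8298 counts (4.85 and 237 CPM), a 48.8-fold difference [41.6 to 57.6], at 0.307 and 20.7 RPKM. DNAH7, a single-headed inner arm motor, had 94 and 3408 counts (2.94 and 97.2 CPM) and was 33.1-fold higher [26.9 to 41.0]. DNAH3, of the same kind, had 114 and 2241 counts (3.57 and 63.9 CPM) and was 17.9-fold higher [14.8 to 21.8]. DNAH1, a heavy chain whose loss in men disrupts the sperm tail, went from 335 to 5320 counts (10.5 and 152 CPM) and was 14.5-fold higher [13.0 to 16.2].

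The other inner arm rows lay apart from these. DNAH10, the partner of DNAH2 in the paired arm, already had 611 counts (19.1 CPM) at 3 months against 3070 (87.6 CPM) at 9 months, a 4.58-fold difference [4.20 to 5.004]. DNAH12 had 73 and 263 counts (2.28 and 7.50 CPM) and was 3.28-fold higher [2.53 to 4.32]. Its gene model in the tables is 2420 bases long and that of DNAH6 5400 bases, whereas the other axonemal heavy chains have models of 12175 to 14592 bases, so both models are far shorter. Per length, DNAH10 led the inner arm in the 3-month library at 1.19 RPKM, and DNAH6 (25.6 RPKM) and DNAH2 (20.7 RPKM) led it in the 9-month library. The summed RPKM of the 12 axonemal heavy chains was 6.04 in the 3-month and 133 in the 9-month library. The cytoplasmic heavy chain DYNC1H1 stood at 26.6 and 50.4 RPKM, which was 81.5% and 27.4% of the heavy chain total with it included. DYNC1H1 thus exceeded the summed RPKM of the 12 axonemal heavy chains at 3 months and not at 9 months. DNAH14 and the dynein-2 heavy chain DYNC2H1 had no row under these symbols, so the total leaves them out.

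**Figure D2:**
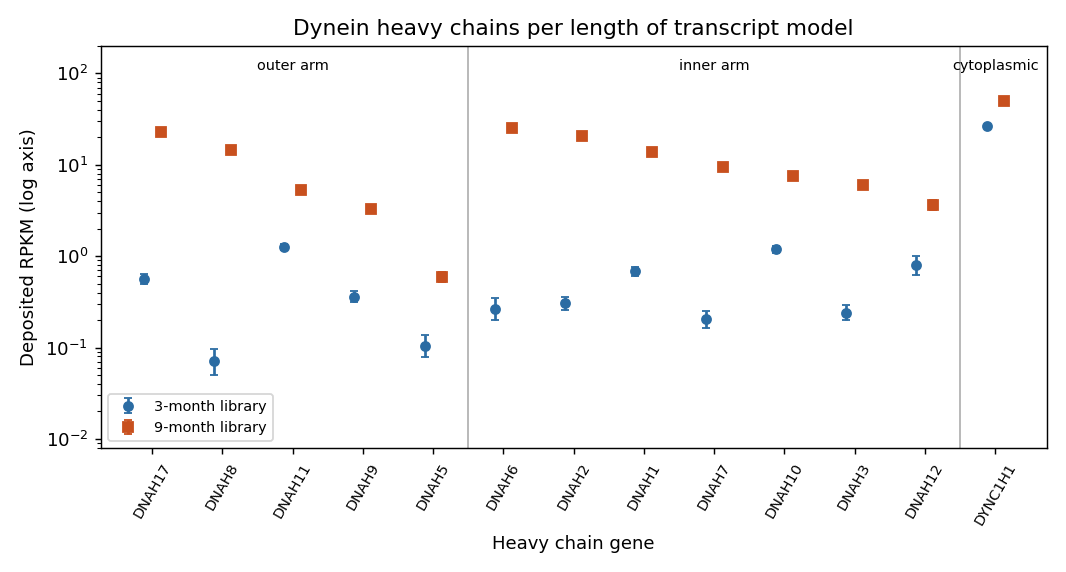
Deposited RPKM (log axis) of the 12 axonemal heavy chain genes and the cytoplasmic heavy chain gene DYNC1H1 in the 3-month library (circles) and the 9-month library (squares), with 95% exact Poisson intervals for counting error. DNAH11 and DNAH10 lead the arms in the 3-month library at 1.25 and 1.19 RPKM, whereas DNAH17 and DNAH6 lead them in the 9-month library at 23.0 and 25.6 RPKM.

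Intermediate and light chains of the axonemal arms were less uniform. DNAI1 (ENSBTAG00000008538) and DNAI2 (ENSBTAG00000016732) encode the intermediate chains that hold the outer arm to its doublet. DNAI1 had 8 counts (0.2504 CPM) in the 3-month and 1612 (46.0 CPM) in the 9-month library, a 184-fold difference [93.0 to 426]. DNAI2 had 462 and 1174 counts (14.5 and 33.5 CPM), a 2.32-fold difference [2.08 to 2.59]. In the 3-month library DNAI2 stood at 6.14 RPKM and DNAI1 at 0.0839, while in the 9-month library they stood at 19.7 and 21.4 RPKM. Their count ratio, DNAI1 to DNAI2, was 0.0173 and 1.37, a 79.3-fold difference [39.7 to 185]. DNALI1, a light intermediate chain of inner arms, went from 53 to 1161 counts (1.66 and 33.1 CPM) and was 19.97-fold higher [15.2 to 26.8]. DNAL4, an axonemal light chain, went from 89 to 265 counts (2.79 and 7.56 CPM) and was 2.71-fold higher [2.13 to 3.49]. It was the most abundant axonemal dynein per length in both libraries, at 15.5 and 58.2 RPKM, on a gene model of only 153 bases. DNAL1, a light chain of the outer arm motor domain, had 206 and 254 counts (6.45 and 7.25 CPM), a ratio of 1.12 [0.932 to 1.36], and stood at 4.90 and 7.64 RPKM. It was the 1 axonemal dynein of 17 within 2-fold.

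Tektins were higher in all 5 rows. TEKT1 (ENSBTAG00000007437) had 32 counts (1.00 CPM) in the 3-month and 5455 (156 CPM) in the 9-month library and was 155-fold higher [109.9 to 227], at 0.612 and 132 RPKM. TEKT2 (ENSBTAG00000021714), needed for tail bending in mouse sperm, went from 64 to 4999 counts (2.003 and 143 CPM) and was 71.2-fold higher [55.7 to 92.6], at 1.02 and 101 RPKM. TEKT5, a sperm tektin, had 18 and 757 counts (0.563 and 21.6 CPM), a 38.3-fold difference [24.1 to 65.0], at 0.301 and 15.98 RPKM. TEKT4 had 0 counts at 3 months and 1063 (30.3 CPM) at 9 months. With 0 set at the floor of 3 counts per library it was 323-fold higher, and its exact interval starts at 262. Its level at 9 months was 23.9 RPKM. TEKT3, found on the sperm flagellum and acrosome, already had 153 counts (4.79 CPM) against 1359 (38.8 CPM), an 8.10-fold difference [6.85 to 9.63], at 2.47 and 27.7 RPKM. TEKT3 made up 56.1% of the summed tektin RPKM at 3 months and 9.23% at 9 months, where TEKT1 at 132 RPKM and TEKT2 at 101 RPKM made up 43.9% and 33.6%. The median does not depend on the floor, since TEKT4 lies above TEKT2 with or without it.

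Radial spoke genes gave 5 of 6 higher. RSPH1 (ENSBTAG00000021284), of the spoke head, had 12 counts (0.376 CPM) in the 3-month and 5296 (151 CPM) in the 9-month library, a 402-fold difference [230.1 to 779]. It stood at 0.325 RPKM at 3 months, and at 181 RPKM it was the most abundant member of the axonemal classes in the 9-month library per length. RSPH9, another head protein, went from 40 to 1522 counts (1.25 and 43.4 CPM) and was 34.7-fold higher [25.4 to 48.7], at 1.16 and 55.5 RPKM. The related head proteins RSPH6A, known from testis, and RSPH4A, known from motile cilia, differed by unequal folds. RSPH6A (ENSBTAG00000012097) had 1 and 1370 counts (0.0313 and 39.1 CPM), a ratio of 1249 [224 to 49364], at 0.0124 and 21.4 RPKM. RSPH4A had 5 and 27 counts (0.156 and 0.770 CPM), a ratio of 4.92 [1.87 to 16.4]. The count ratio of RSPH6A to RSPH4A was 0.200 and 50.7, with an interval of 26.3 to 12004 for the fold between them because RSPH6A had 1 count in the 3-month library. RSPH14, of the spoke, went from 5 to 708 counts (0.156 and 20.2 CPM) and was 129-fold higher [55.1 to 399], at 0.105 and 18.8 RPKM. RSPH3, of the spoke stalk, had 324 and 689 counts (10.1 and 19.7 CPM), a ratio of 1.94 [1.70 to 2.22], stood at 4.02 and 10.8 RPKM, and was the 1 member of the class within 2-fold. It held 70.8% of the class RPKM at 3 months and 3.75% at 9 months. In annotation ARS-UCD2.0, RSPH1 overlaps SLC37A1 (log2 ratio 1.67) and RSPH14 overlaps GNAZ (2.91), and neither gene reached the ratio of the member it overlaps.

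**Figure D3:**
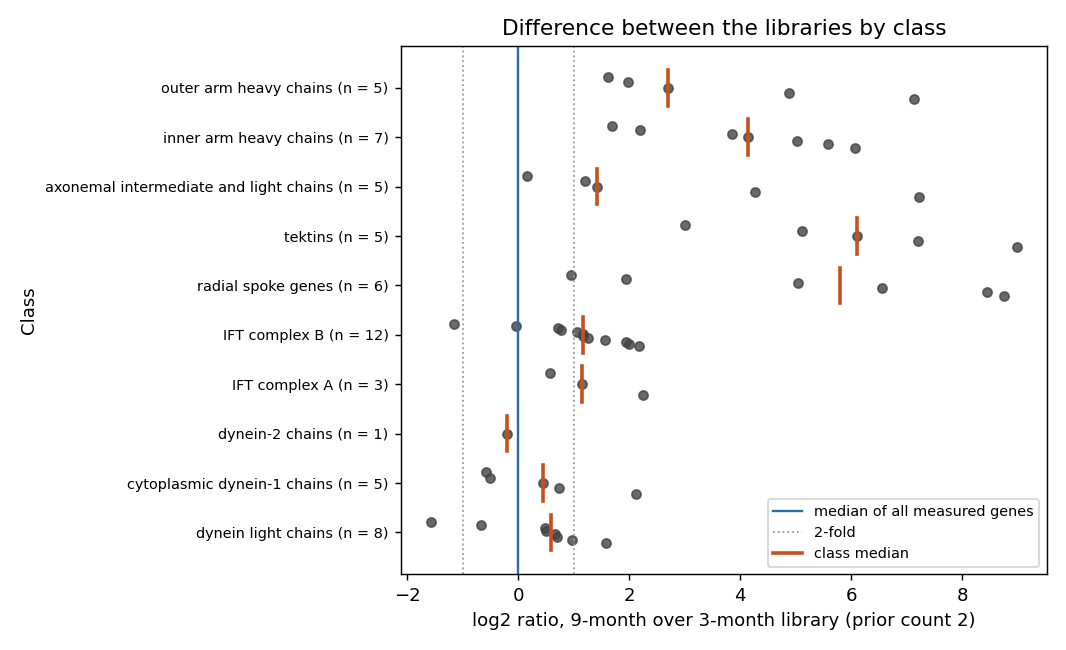
Log2 ratio of the 9-month over the 3-month library (prior count 2) for each member by class, with the class median as an orange bar, the median of all measured genes as a blue line and 2-fold as dotted lines. Every tektin and every axonemal heavy chain lies above 2-fold, whereas the dynein-1 chains and light chains lie around the median of all genes, with DYNC1I1 and DYNLRB2 above and DYNLT3 below 2-fold.

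Intraflagellar transport genes were expressed in both libraries and differed by smaller folds, with 10 of 15 higher, 1 lower and 4 within 2-fold. None of the 15 was at least 16-fold higher. In complex A, which works in return transport, IFT140 (ENSBTAG00000007245) had 856 counts (26.8 CPM) in the 3-month and 4493 (128 CPM) in the 9-month library, a 4.78-fold difference [4.45 to 5.15], at 5.01 and 33.2 RPKM. IFT122 went from 1721 to 4176 counts (53.9 and 119 CPM) and was 2.21-fold higher [2.09 to 2.34]. IFT43, a small complex A subunit, had 232 and 378 counts (7.26 and 10.8 CPM), a ratio of 1.49 [1.26 to 1.76].

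Complex B, which works in outward transport, had 12 rows. IFT52 (ENSBTAG00000019606), of its core, had 560 and 2776 counts (17.5 and 79.2 CPM) and was 4.52-fold higher [4.13 to 4.96], at 10.1 and 63.3 RPKM. IFT27, a small GTPase of the complex, is listed in 2 rows that could share reads. Its row ENSBTAG00000006213 had 289 and 1277 counts (9.05 and 36.4 CPM), 4.03-fold higher [3.54 to 4.59], at 7.40 and 41.3 RPKM. Its row ENSBTAG00000026657 had 702 and 2976 (21.97 and 84.9 CPM), 3.86-fold higher [3.56 to 4.20], at 22.4 and 119.7 RPKM. IFT81, which binds tubulin cargo, had 529 and 1715 counts (16.6 and 48.9 CPM), a 2.96-fold difference [2.68 to 3.26]. IFT57, IFT22, IFT80 and IFT172, the last of these a large peripheral subunit, were 2.396-fold, 2.25-fold, 2.25-fold and 2.09-fold higher. IFT74 and IFT88, a core subunit whose mutation in mice shortens cilia, were within 2-fold at ratios of 1.70 and 1.65. IFT172 was within 2-fold with upper-quartile scaling, at a ratio of 1.93, and with plain totals IFT43, IFT74 and IFT88 were higher, at 2.06, 2.36 and 2.29.

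The remaining complex B genes did not share this direction. IFT20 (ENSBTAG00000008110), which also acts at the Golgi apparatus, had 1764 and 1892 counts (55.2 and 54.0 CPM), a ratio of 0.978 [0.916 to 1.04]. IFT46 (ENSBTAG00000012941), of the core, had 1422 counts (44.5 CPM) in the 3-month and 696 (19.9 CPM) in the 9-month library and was 2.24-fold lower [2.05 to 2.46]. With plain library totals IFT46 stayed below a ratio of 1, at 0.618, and was within 2-fold. Per length, IFT20 at 43.9 RPKM, IFT46 at 24.8, IFT57 at 23.8 and an IFT27 row at 22.4 led the 3-month library. In the 9-month library that IFT27 row at 119.7 RPKM, IFT57 at 79.1 and IFT52 at 63.3 led, and IFT46 at 15.3 RPKM was the lowest of the 15, with an interval that overlapped those of IFT172, IFT43, IFT88 and IFT80. That of IFT52 overlapped that of IFT20, at 59.5 RPKM. At 3 months those of IFT46, IFT57 and the IFT27 row next to each other also overlapped. Of the genes that overlap IFT members in ARS-UCD2.0, TELO2 and TMEM204 (with IFT140), TGFB3 (with IFT43) and TEK (with IFT74) had log2 ratios of -0.71, -1.72, -0.40 and -1.24.

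Cytoplasmic dyneins gave 2 of 14 higher, 1 lower and 11 within 2-fold, against 16 of 17 axonemal dyneins higher. The medians differed by 3.36 on the log2 scale, and 11 axonemal dyneins lay above the highest cytoplasmic one. DYNC1H1 (ENSBTAG00000016598), the dynein-1 motor, had 14182 counts (444 CPM) in the 3-month and 21285 (607 CPM) in the 9-month library, a ratio of 1.37 [1.34 to 1.40]. DYNC1I2, the widely expressed intermediate chain, had 4580 and 3374 counts (143 and 96.3 CPM), a 1.49-fold difference downwards [1.42 to 1.56]. DYNC1I1, the intermediate chain best known from neurons, had only 10 and 55 counts (0.313 and 1.57 CPM) and was 5.01-fold higher [2.53 to 11.0]. At 0.104 and 0.720 RPKM it remained far below DYNC1I2 at 62.6 and 58.2 RPKM. Of the light intermediate chains, DYNC1LI1 had 2279 and 1756 counts (71.3 and 50.1 CPM) and DYNC1LI2 1448 and 2646 (45.3 and 75.5 CPM), ratios of 0.702 and 1.67. DYNC1LI2 stood at 23.8 and 54.9 RPKM. The ratio of DYNC1LI2 to DYNC1LI1 counts was 0.635 and 1.51, a 2.37-fold difference [2.17 to 2.60]. DYNC2LI1, the only dynein-2 row among the members, had 1172 and 1119 counts (36.7 and 31.9 CPM), a ratio of 0.870 [0.801 to 0.945] that became 1.21 with plain library totals.

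Light chains bind the intermediate chains, and several of them serve axonemal and cytoplasmic motors alike. The roadblock chains DYNLRB1 and DYNLRB2 went apart. DYNLRB1, the common form, had 1318 counts (41.3 CPM) in the 3-month and 912 (26.0 CPM) in the 9-month library, a 1.59-fold difference downwards [1.46 to 1.73], at 54.4 and 47.6 RPKM. DYNLRB2 (ENSBTAG00000017752), the form enriched in testis and ciliated tissue, had 218 and 725 counts (6.82 and 20.7 CPM) and was 3.03-fold higher [2.60 to 3.54], at 10.5 and 44.0 RPKM. DYNLRB2 thus held 16.2% of the DYNLRB RPKM at 3 months and 48.1% at 9 months, and its count ratio to DYNLRB1 differed 4.81-fold [4.03 to 5.74].

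Tctex-type chains showed a like shift. DYNLT3 (ENSBTAG00000038156) had 2996 counts (93.8 CPM) in the 3-month and 1100 (31.4 CPM) in the 9-month library and was 2.99-fold lower [2.79 to 3.20], the lowest log2 ratio of all members, at 37.7 and 17.5 RPKM. DYNLT1 had 1412 and 3055 counts (44.2 and 87.2 CPM), a ratio of 1.97 [1.85 to 2.10], just under the 2-fold line, at 49.7 and 136 RPKM. The count ratio of DYNLT1 to DYNLT3 was 0.471 and 2.78, a 5.89-fold difference [5.36 to 6.48]. The LC8 chains, hub proteins with many partners besides dynein, differed little from each other. DYNLL2 had 3329 and 5823 counts (104 and 166 CPM), a ratio of 1.59 [1.53 to 1.66]. DYNLL1 is listed in 3 rows, with 3823 and 6780, 2161 and 3348, and 2002 and 3061 counts, at ratios of 1.62, 1.41 and 1.39. RefSeq (ARS-UCD2.0) names 1 DYNLL1 gene, and near-identical copies can split or share reads, so the separate rows are uncertain. The ratio of DYNLL2 counts to those of the 3 DYNLL1 rows together was 0.417 and 0.442, a 1.06-fold difference [1.01 to 1.11]. Per length, the DYNLL1 rows were the most abundant members of both libraries, at 154 to 213 RPKM and 344 to 416 RPKM.

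**Figure D4:**
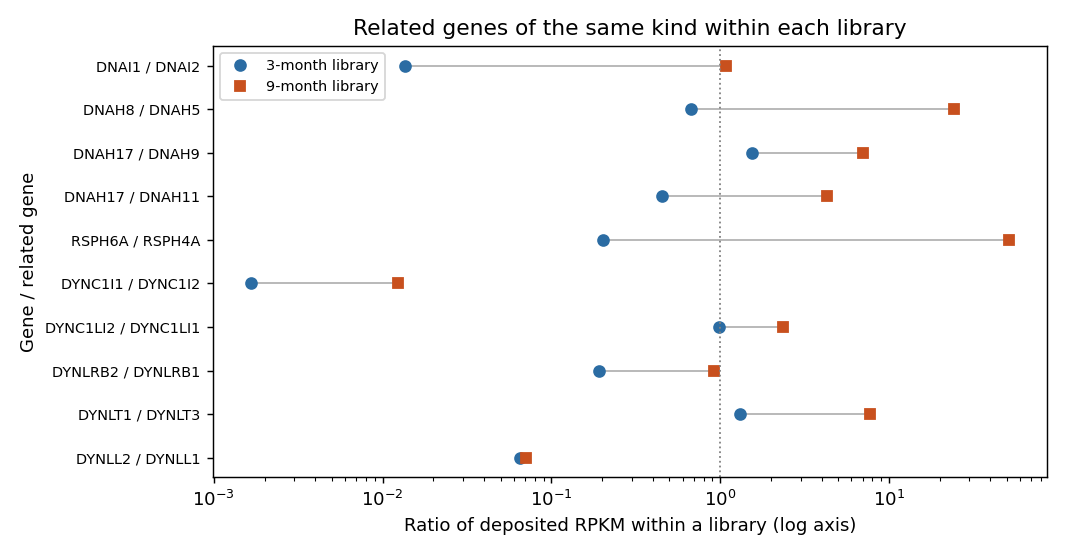
Ratio of the deposited RPKM of related genes within each library (log axis), 3-month library as circles and 9-month library as squares, with the DYNLL1 rows summed. The ratios of DNAH8 to DNAH5, DNAH17 to DNAH11 and RSPH6A to RSPH4A cross from below to above 1. Those of DNAI1 to DNAI2 (0.0137 and 1.08) and DYNC1LI2 to DYNC1LI1 (0.988 and 2.34) cross it too. The ratio of DYNLL2 to DYNLL1 is 0.0648 and 0.0707.

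Pairs of related genes in the preceding paragraphs were chosen after their values were seen. A change of scaling moves the ratios of all genes about alike, and calls turned where a ratio lay near 2-fold. Relative to TMM, plain library totals shift ratios by 0.47 on the log2 scale and upper-quartile scaling by -0.11, before the prior count is added. Of the genes called in either direction, 54.5% were higher with TMM and 71.2% with plain totals. Among all measured genes, 36.2% were at least 2-fold higher and 14.7% at least 2-fold lower with plain totals, against 27.7% and 23.2% with TMM. With plain totals 16 axonemal dyneins and 5 tektins were higher as before, and 6 cytoplasmic dyneins instead of 2, among them DYNLT1, DYNC1LI2, DYNLL2 and a DYNLL1 row. Radial spoke genes were then higher in 6 of 6 rows, with RSPH3 at a ratio of 2.68, and IFT genes in 13 of 15 with 0 lower. The ratios of DNAH11, DNAH17, DNAH7 and DNAH9 are uncertain where a neighbour overlaps and the strand setting is not given in the sources used here. CDCA7L, PGS1 and SLC39A10, which overlap DNAH11, DNAH17 and DNAH7 in ARS-UCD2.0, had log2 ratios of -0.58, 0.73 and -2.31, each below that of the dynein. ZNF18, which overlaps DNAH9, went from 412 to 10801 counts with a log2 ratio of 4.57, above the 2.70 of DNAH9.

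Further genes of these pathways were taken from lists that do not hold the members. The lists were written with earlier results of these data known, so they are not an independent check of the division above. Of 15 measured assembly factors, which fold and preassemble axonemal dyneins in the cytoplasm, 11 were higher and 4 within 2-fold, the median log2 ratio being 1.58. DNAAF1 went from 56 to 39786 counts (1.75 and 1135 CPM), a 648-fold difference [499 to 858], and ZMYND10 from 9 to 3577 counts, a 362-fold difference [191 to 793]. WDR92 was lowest of the list at a ratio of 1.04. All 10 genes of the outer arm docking complex and other arm components were higher, with a median of 3.95. CCDC63, a docking protein of sperm, was 339-fold higher [132 to 1245]. NME8, at 0 and 1005 counts, was 305-fold higher from the floor of 3 counts, with an interval that starts at 248. CASC1 was lowest at 3.48-fold.

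The nexin-dynein regulatory complex, which links doublets and restrains sliding, had 10 of 11 higher with a median of 3.97. CCDC135 was 77.5-fold higher [51.0 to 124], CCDC65 was 36.6-fold higher [30.5 to 44.1], and EFCAB2 had a ratio of 1.35. All 19 central pair genes and radial spoke genes of other symbols were higher, with a median of 3.98. LRRC23, a radial spoke protein, went from 12 to 9465 counts and was 719-fold higher [411 to 1392], ROPN1L 589-fold [344 to 1107], and CFAP54, of the central pair, 3.62-fold. Of 11 microtubule inner proteins 10 were higher, with a median of 3.50. RIBC2, at 0 and 1127 counts, was 342-fold higher from the floor of 3 counts, with an interval that starts at 278. NME7 had a ratio of 1.20.

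IFT genes under other symbols and the kinesin-2 motor gave 10 of 16 higher, 2 lower and 4 within 2-fold (median 1.40). KIF17, a homodimeric kinesin-2, went from 78 to 16096 counts and was 188-fold higher [151 to 238], and KIF3B, of the heterotrimeric motor, 9.70-fold [9.23 to 10.2]. WDR19, the complex A subunit IFT144, was 2.78-fold lower [2.59 to 2.98], whereas IFT140 and IFT122 of the same complex were higher. Of dynein-2 subunits, WDR60 was 4.25-fold higher [3.75 to 4.83], TCTEX1D2 was 4.28-fold higher [3.77 to 4.88], and WDR34 had a ratio of 1.05. Those 3 were named after their values were seen. Of 7 BBSome genes, whose complex carries membrane proteins in cilia, 3 were higher and 4 within 2-fold (median 0.39). BBS5 and BBS7 were 2.67-fold and 2.19-fold higher, and ARL6 had a ratio of 0.737 that became 1.02 with plain totals.

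Dynactin and other partners of cytoplasmic dynein gave 3 of 22 higher, 3 lower and 16 within 2-fold (median 0.070). HOOK1, an adaptor needed for normal sperm head shape in mice, was 9.37-fold higher [8.29 to 10.6], SPDL1, an adaptor at kinetochores, 7.31-fold [6.34 to 8.46], and the actin-capping subunit CAPZA2 2.29-fold lower [2.14 to 2.45]. With plain library totals 5 of the 22 were higher and 0 lower, CAPZA2 being 1.65-fold below its 3-month level. Of 13 measured transcription factors of ciliary genes 10 were higher and 3 within 2-fold (median 3.07). RFX4 and RFX2, of the family that binds ciliary gene promoters, were 340-fold [179 to 743] and 115-fold [88.5 to 152] higher. FOXJ1, the factor of motile ciliogenesis and named after its value was seen, had 5 and 209 counts (0.156 and 5.96 CPM), and RFX7 had a ratio of 0.656.

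**Figure D5:**
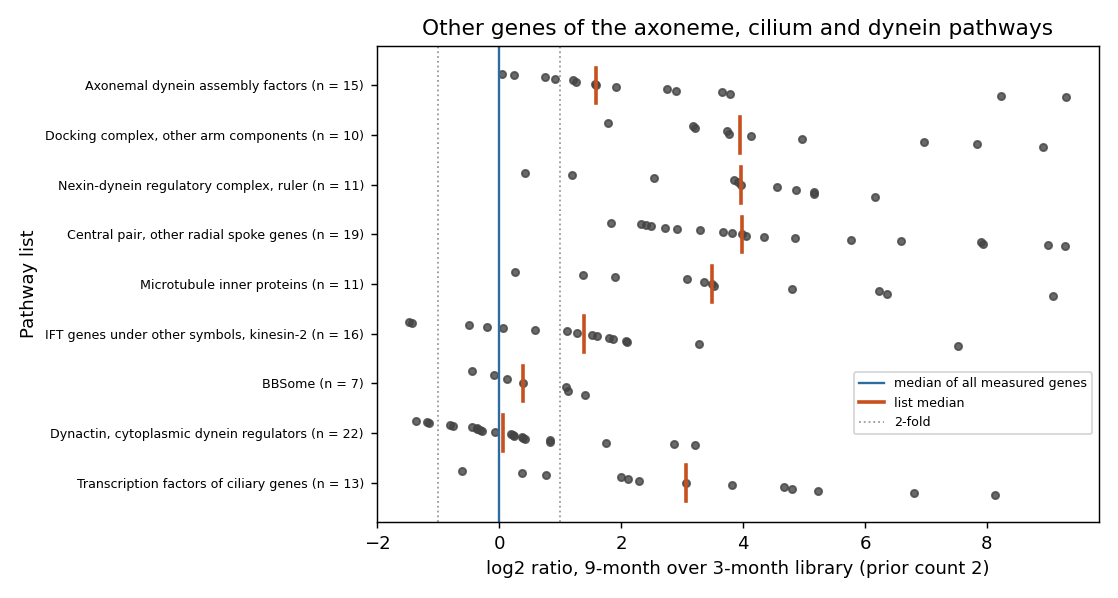
Log2 ratio of the 9-month over the 3-month library (prior count 2) for measured genes of 9 pathway lists, with list medians as orange bars, the median of all measured genes as a blue line and 2-fold as dotted lines. All 19 genes of the central pair and other spoke list lie above 2-fold, while 16 of 22 dynactin and regulator genes lie within it.

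Axonemal genes are also expressed by multiciliated epithelium, such as that of the efferent ducts. Of 8 measured genes of a multiciliated list 5 were higher and 2 lower, with sums of 49.7 and 143 CPM over the 10 listed. Of the 5 higher genes, FOXJ1, GMNC and TMEM190 can also be expressed by male germ cells, so the count does not stand for that epithelium alone. With plain totals 0 were lower. TPPP3 gave 31.6 of the 49.7 CPM at 3 months and 12.4 CPM at 9 months, and the other 9 summed to 18.0 and 131 CPM. MUC16, a mucin, stood at 0.595 CPM at 3 months and made up much of the second sum at 78.0 CPM. MCIDAS and CCNO, which drive multiplication of basal bodies, had 1 and 3 and 2 and 2 counts. GMNC was at 0 counts in the 3-month library and had 51 in the 9-month library. Of 7 measured markers of rete testis, efferent duct and epididymis 2 were higher and 3 lower, with sums of 19.0 and 25.5 CPM over the 9 listed. CRISP1 and LCN9 had 0 counts at 3 months and 1 and 12 at 9 months, and PAX8 had 40 and 17 counts.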

How the data were processed

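RNA sequencing of seminiferous tubules from 1 calf aged 3 months and 1 aged 9 months was analysed, grouped by the age in the labels. Per the labels' protocols, tubule pieces were flash frozen and libraries made from total RNA. Trimmomatic 0.33, STAR 2.4.0 and build UMD3.1 are named, per the submitters' processing notes. How reads were counted (program, annotation release, strand) is not given in the sources used here. The deposited tables have no header, and their units were read from the values. The authors deposited raw counts per Ensembl gene, gene length, and RPKM, which equals the count over gene length and table total, to within 0.000496%. No column of other samples was present, and 0 were left unused.

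Counts of all listed genes were scaled by TMM in edgeR 4.0.16 (R 4.3.3), with factors of 0.850 and 1.18. Folds are ratios of scaled counts with 95% exact conditional binomial (Clopper-Pearson) intervals, and those of count ratios are conditional odds ratio intervals. RPKM intervals are exact Poisson. A count of 0 was set at a floor of 3 counts per library (0.0939 and 0.0856 CPM). Counting error alone enters the intervals and floors, and PCR copies are not separate molecules. Log2 ratios carry a prior count of 2. The calling procedure was run on simulated Poisson counts with few changed genes. That setting cannot test differences between animals, or scaling where many genes differ. Further tools were scipy 1.17.1, numpy 2.4.6, matplotlib 3.10.9 and pandas 2.3.3 under Python 3.11.15. The alternatives were other scalings, prior count, count minimum, fold, summed symbols and narrower dynein classes.

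The members and lists were chosen with earlier results of these data known. In each class, the 4 members with the highest and 2 with the lowest log2 ratio among those of at least 5 CPM are described in full, with the most abundant, those at 0 counts and those against their class. Of each pathway list the rule named the highest 2 and the lowest 1 at the same minimum. For 1 gene so named, the values are not reported here. Pairs of related genes were chosen after their values were seen. RefSeq symbols of ARS-UCD2.0 matched all 54 member symbols and served only for names and overlaps. No genome position is printed, and sequences were not used here.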

Additional observations from a re-analysis of the deposited data

How the results depend on the processing

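No paired analysis was possible because each age had 1 library, and no library could be left out. No called result reversed, but DYNC2LI1 and IFT20, both within 2-fold, passed to the other side of a ratio of 1 with plain library totals, as did ARL6 of the pathway lists. WDR92 and WDR34 did so with upper-quartile scaling, at 0.958 and 0.966. In the lists, KIF3C and all 3 lower dynactin and regulator genes lost their call with plain totals, and TTC30A and BBS9 lost theirs with upper-quartile scaling. TMM without mitochondrial genes, minimums of 1 or 50 counts, summed symbols and relative log expression scaling changed no count by over 1.5 times and moved no class median beyond its counting error. With plain library totals 6529 genes in all were at least 2-fold higher instead of 4996, and 2643 lower instead of 4174. Of the members 1 was lower, 0 IFT genes were lower and 6 cytoplasmic dyneins were higher. The medians were then 4.32 for axonemal dyneins, 0.96 for cytoplasmic dyneins, 1.63 for IFT genes and 6.57 for tektins. Upper-quartile scaling gave cytoplasmic dyneins a median of 0.37, and a prior count of 10 gave radial spoke genes 5.16. At 4-fold, 3102 genes were higher and 1583 lower, 3 IFT genes and 1 cytoplasmic dynein were higher, and 0 members were lower, hence 0 IFT genes and 0 cytoplasmic dyneins. Without light chains, 1 cytoplasmic dynein was higher and 0 lower, with a median of 0.13 and a distance of 3.72 to the axonemal median. With dynein-1 chains alone 1 was higher and 0 lower. The lowest counts, those of RSPH6A, RSPH14, RSPH4A, DNAI1 and DYNC1I1 in the 3-month library, limit how closely their folds are known.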

Other observations

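Newer RefSeq symbols give the same family names to 9 further rows that the tables list under older symbols, and these rows were in no class of members, though some stand in the pathway lists. Of them 6 were higher at 9 months, 0 lower and 3 within 2-fold. TCTE3, now DYNLT2 and a light chain of the outer arm, had 13 and 682 counts (0.407 and 19.5 CPM) and was 47.8-fold higher [27.8 to 90.3]. WDR63, now DNAI3 and an intermediate chain, had 36 and 5187 counts and was 131-fold higher [94.7 to 188]. TTC30B and TTC30A, now IFT70B and IFT70A, were 3.50-fold [3.05 to 4.02] and 2.15-fold [1.98 to 2.35] higher (TTC30A at 1.99 with upper-quartile scaling, within 2-fold), near the IFT genes of complex B. C3H1ORF41, now IFT25 and the partner of IFT27, had 223 and 289 counts and a ratio of 1.18 [0.989 to 1.41], while both IFT27 rows were higher. TCTEX1D1, now DYNLT5, had 4 and 2 counts. These are below the minimum of 10, so no fold is given.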
